A study of Mus musculus with 6 samples.

Results

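The genes described here are the embryonic globins of the mouse and the genes that mark the red cell lineage. They were chosen by name as 9 transcripts of primitive red cells: Hba-a1, Hba-x, Hbb-bh1, Hbb-y, Hbb-b1, Slc4a1, Alas2, Gata1 and Klf1. The array's annotation gave 11 probes for 8 of these genes, out of 45281 probes and 19057 named genes in all. Hbb-b1 had no probe under that symbol. Of the 8 genes, 5 were measured: the 3 arrays of KO, of WT or of both read a probe above background, that is, with a detection p-value under 0.01. That filter left 12697 probes of 7141 genes. Alas2, Gata1 and Klf1 had probes, but none of those probes passed it.

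Surface ectoderm of CBP/p300-/- embryos (KO, 3 arrays) was set against lens placode of wild-type embryos (WT, 3 arrays), both at embryonic day 9.5 and both on a mixed FVB and 129 background. CBP and p300 are lysine acetyltransferases that serve as transcriptional coactivators, and the question was which genes depend on them when the placode forms. Laser microdissection supplied the tissue, and RNA from 3 embryos made up the single pool of each genotype, from which 3 amplifications were run on 1 array each. By the labels, then, the p-values below measure only the spread between amplifications of 1 pool. The study's text speaks instead of biological replicates, for arrays of embryos a day older, and the sources used here leave it unsettled whether those are the same arrays. The study describes the deletion as conditional, made by Cre in the prospective lens ectoderm, and its methods name Pax6-Cre for embryos a day older. The labels give no Cre line for these embryos. The tissue label changes together with the genotype, and the contribution of each cannot be told apart.

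Primitive red cells arise in the yolk sac and circulate while they still have a nucleus. They carry embryonic hemoglobins built from alpha-type chains (zeta, from Hba-x, and alpha, from Hba-a1 and its copy Hba-a2) and beta-type chains (epsilon-y, from Hbb-y, and beta-h1, from Hbb-bh1), and adult beta globin follows later. The transcription factors GATA1 and KLF1 bind GATA and CACCC elements of globin and other erythroid genes, Alas2 encodes the first enzyme of heme synthesis in erythroid cells, and Slc4a1 encodes band 3, the anion exchanger of the red cell membrane. None of these genes is a marker of lens or surface ectoderm.

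Since the genes share a cell type and known regulators, the start regions of 3 of the globins are shown, each from 250 bases before to 50 bases after the annotated start (RefSeq, GRCm38.p6). Capitals mark 4 short words searched on both strands: GATA words (GATA with A or T before it and A or G after it), the CACCC word, the CCAAT word, and ATAAA, the last standing for a TATA-like box.
Hba-x, chr11:32276350-32276649, + strand: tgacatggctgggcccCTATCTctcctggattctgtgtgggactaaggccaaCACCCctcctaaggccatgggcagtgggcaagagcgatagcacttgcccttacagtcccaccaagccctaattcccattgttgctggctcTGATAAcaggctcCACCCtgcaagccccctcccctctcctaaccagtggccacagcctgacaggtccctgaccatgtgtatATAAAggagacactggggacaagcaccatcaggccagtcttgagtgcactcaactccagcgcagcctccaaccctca
Hba-a1, chr11:32283422-32283721, + strand: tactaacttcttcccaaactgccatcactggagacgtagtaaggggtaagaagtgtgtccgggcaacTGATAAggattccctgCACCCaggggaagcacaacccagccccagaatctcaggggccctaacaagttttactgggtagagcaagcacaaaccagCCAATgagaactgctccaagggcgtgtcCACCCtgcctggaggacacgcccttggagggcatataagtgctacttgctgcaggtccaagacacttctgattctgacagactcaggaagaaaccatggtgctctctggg
Hbb-y, chr7:103853158-103853457, - strand: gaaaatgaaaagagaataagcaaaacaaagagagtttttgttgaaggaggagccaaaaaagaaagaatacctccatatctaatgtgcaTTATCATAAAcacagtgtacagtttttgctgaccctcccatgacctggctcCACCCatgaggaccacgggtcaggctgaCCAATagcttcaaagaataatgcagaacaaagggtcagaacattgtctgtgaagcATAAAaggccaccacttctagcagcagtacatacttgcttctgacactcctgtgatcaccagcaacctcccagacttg
The Hba-x region held GATA words at positions -234 and -108, CACCC at -198 and -95 and ATAAA at -27, with the start as position 0 and positions given for the leftmost base of a match. In Hba-a1 a GATA word lay at -183, CACCC at -167 and -60 and CCAAT at -88. In Hbb-y a GATA word lay at -162, CACCC at -111, CCAAT at -83 and ATAAA at -157 and -28, the GATA word and the first ATAAA overlapping. Of the 9 genes, 6 had an entry in the promoter table. A CACCC word was found in 6 of these 6 (57.5% of all 32851 promoters of that length hold one), a GATA word in 5 (29.8%), CCAAT in 3 (37.4%) and ATAAA in 3 (40.0%). These are matches of letters, not sites, and the arrays did not measure binding.

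All 6 arrays lay on 1 BeadChip. Between 14759 and 17195 probes were above background on the KO arrays, and between 12212 and 15325 on the WT arrays. The raw median intensity was highest on WT replicate 1 (141, against 95.5, 90.9 and 94.5 on the KO arrays and 85.6 and 87.0 on the other WT arrays) and that array had the fewest probes above background. Markers of the labelled tissues were read. They cannot check the tissue label, which changes together with the genotype. Of 8 lens placode genes, all measured, 2 (Foxe3 and Pitx3) were called lower in KO and 0 higher, with a median log2 difference of -1.82. Both probes were above background on 0 of 3 KO arrays and passed the filter only through WT. Both calls were lost when any 1 array was left out or a replicate block was fitted, as were all calls over all probes. Of 8 surface ectoderm markers 7 were measured, 0 of them read higher in KO, and their median was -0.49. None was called, and 3 (Cdh3, Tfap2c and Krt8) were lower at an unadjusted p under 0.05, as were 6.61% of all tested probes.

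The 4 measured globins and Slc4a1 read higher on every KO array than on any WT array. The differences were 1.77 on the log2 scale for Hba-x, 1.39 for Hba-a1, 1.16 for Hbb-bh1, 0.71 for Hbb-y and 2.15 for Slc4a1. None of them passed the test over all probes. Of 6 member probes tested, of which 5 were above background on all 6 arrays and the Slc4a1 probe passed the filter only through KO, 0 were called at a Benjamini-Hochberg adjusted p under 0.05 with an absolute log2 difference of at least 1, against 0.417% of all tested probes called higher and 0.425% called lower (limma). The 5 globin probes among them had an unadjusted p under 0.05 in the direction of higher in KO, which 8.58% of all tested probes had (6.61% were lower in KO at that p). In these 5 every KO array was above every WT array, a pattern found in 11.3% of tested probes (10.2% had every KO array below). The Slc4a1 probe showed the same, but it passed the filter only through KO, which favours probes that read higher there. The measurement was made on bulk tissue, in which more red cells and more RNA per red cell cannot be told apart.

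**Figure D1:**
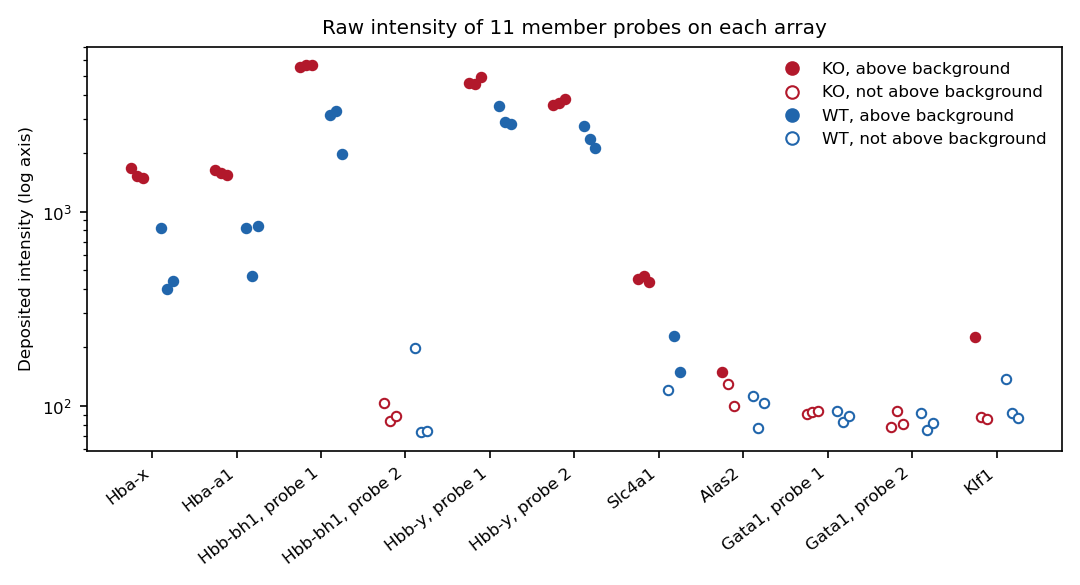
Deposited intensity (log axis, before normalization) of the 11 member probes on each of 3 KO and 3 WT arrays, KO left of WT for each probe; filled circles are readings above background (detection p-value under 0.01) and open circles are readings that are not. The KO readings of the 6 tested probes sit close together and above all WT readings, while Alas2, Gata1, Klf1 and the dimmer Hbb-bh1 probe stay near background.

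Among the alpha-type globins, Hba-x encodes the zeta chain, which is made in primitive red cells. Its probe had a deposited intensity of 1671, 1528 and 1491 on KO replicates 1 to 3, against 820.5, 398 and 439.9 on WT replicates 1 to 3. The KO arrays lay within 1.12-fold of each other and the WT arrays within 2.06-fold, with WT replicate 1 the highest WT array, and the groups did not overlap. After normalization the mean log2 intensity was 10.60 ± 0.11 in KO and 8.83 ± 0.48 in WT (SD, n = 3 each). The difference was 1.77 ± 0.33 (SE, 95% confidence interval 0.97 to 2.56), a 3.41-fold higher reading with a limma adjusted p of 0.0779. Of the 7141 genes measured, Hba-x stood at rank 242 from the top by log2 difference, so that 3.37% of genes had a larger one.

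Hba-a1 encodes the alpha chain that is used from the embryo to the adult. Its deposited intensity was 1631, 1584.5 and 1543 on the KO arrays, against 821, 466 and 841 on the WT arrays. The KO readings were again close to each other (within 1.06-fold) and WT replicate 2 was the low array among the WT arrays, without overlap between the groups. The mean log2 intensity was 10.62 ± 0.07 in KO and 9.24 ± 0.40 in WT (SD, n = 3 each), and the difference was 1.39 ± 0.30 (SE, 95% confidence interval 0.66 to 2.12, 2.62-fold, limma adjusted p = 0.108). Hba-a2, a nearly identical copy of the same gene, had no probe under its own symbol, and the probe may read both copies.

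Among the beta-type globins, Hbb-bh1 encodes the beta-h1 chain of primitive red cells. Its brighter probe read 5585, 5664 and 5662 on the KO arrays, against 3140.5, 3298 and 1972 on the WT arrays. The KO arrays differed by 1.01-fold at most, and WT replicate 3 stood below the other WT arrays. Mean log2 intensities of 12.48 ± 0.06 in KO and 11.32 ± 0.46 in WT (SD, n = 3 each) gave a difference of 1.16 ± 0.32 (SE, 95% confidence interval 0.40 to 1.93, 2.24-fold, limma adjusted p = 0.168). A second Hbb-bh1 probe, annotated to a cDNA clone, was not above background on any array and was not tested.

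Hbb-y encodes the epsilon-y chain, an early beta-type globin, and was read by a pair of probes. The brighter probe had 4592.5, 4517.5 and 4923 on the KO arrays, against 3502.5, 2879.8 and 2835 on the WT arrays. The other had 3556, 3623.5 and 3820.5 on the KO arrays, against 2754, 2358.5 and 2126 on the WT arrays. With both probes the groups did not overlap, WT replicate 1 was the highest WT array and WT replicate 3 the lowest. The differences were 0.71 ± 0.24 (SE, 95% confidence interval 0.12 to 1.30, limma adjusted p = 0.248) and 0.73 ± 0.25 (0.13 to 1.33, adjusted p = 0.244), or 1.63-fold and 1.66-fold, so that the probes of this gene differed by less than the SE of either. Hbb-y was at rank 1344 of 7141 by log2 difference, with 18.8% of genes above it.

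The position of a probe among all probes of its array does not depend on normalization between arrays. Hbb-bh1 lay at percentiles 99.4 to 99.5 of the KO arrays and 96.7 to 98.6 of the WT arrays, and Hbb-y at 99.2 to 99.3 in KO and 98.0 to 98.5 in WT. Hba-x lay at 95.8 to 96.5 in KO and 86.0 to 91.1 in WT, and Hba-a1 at 95.9 to 96.4 in KO and 87.6 to 91.8 in WT. Globin transcripts were thus read in every amplification of both pools, the WT lens placode included. The beads of these globin probes numbered 23 to 52 per array, and the standard error over beads was 1.77% to 4.93% of the intensity, below the spread between WT arrays. A probe's brightness depends on its sequence, so no globin's intensity was set against another's.

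Slc4a1, the membrane anion exchanger that primitive and adult red cells both carry, read 448, 466 and 435 on the KO arrays, against 120.1, 229.7 and 149 on the WT arrays. All 3 KO arrays were above background and above every WT array. WT replicates 2 and 3 were above background and WT replicate 1, the array with the highest background, was not. The mean log2 intensity was 8.54 ± 0.09 in KO and 6.39 ± 1.42 in WT (SD, n = 3 each), a difference of 2.15 ± 0.70 (SE, 95% confidence interval 0.44 to 3.85, limma adjusted p = 0.233). The size of that difference rests partly on a background reading: it was 1.36 (adjusted p = 0.189) without WT replicate 1, 2.71 (adjusted p = 0.142) without WT replicate 2 and 1.46 (adjusted p = 0.196) with no background correction. Slc4a1 passed the detection filter only through its KO arrays. Passing in this way favours genes that read higher in KO, so its direction is no independent support.

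The other erythroid genes gave no usable difference. Alas2, the heme synthesis enzyme of red cells, read 149, 129 and 99.7 in KO and 112, 76.3 and 104 in WT, and was above background on KO replicate 1 alone. Klf1, the factor that binds CACCC elements, read 226, 87.4 and 85.6 in KO and 137, 91.3 and 86.4 in WT, again above background on KO replicate 1 alone. Gata1, the GATA factor of the lineage, was above background on 0 of the 6 arrays with either of its probes. The readings of Alas2, Klf1 and Gata1 overlapped between the groups. At this signal over background a difference in these genes was not detectable, and the values do not show that they are absent. With no filter the fitted differences were 0.55 for Alas2, 0.55 for Klf1 and 0.11 for Gata1.

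Over the 5 measured genes the median log2 difference was 1.39, beside 0.03 over all 7141 genes measured. Over the 8 genes that had a probe, with no filter, it was 0.94. These medians describe the genes and are no test, since 1 of the 5 passed only through KO. The red cell signal on these arrays was thus read from globins and Slc4a1, with the lineage's own transcription factors at or near background.

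**Figure D2:**
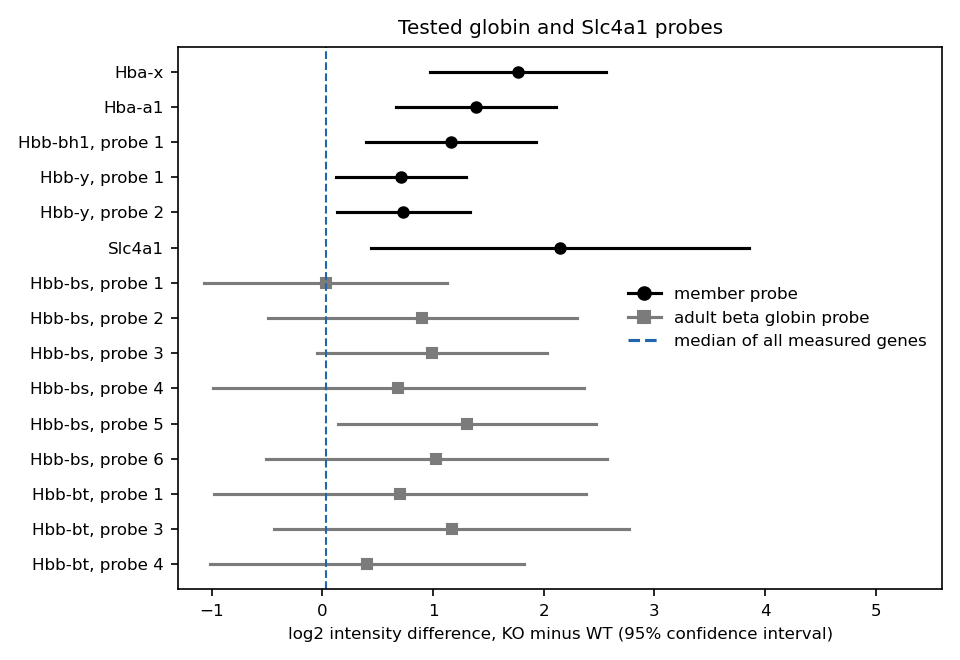
Difference in log2 intensity, KO minus WT, with its 95% confidence interval (limma) for the 6 tested member probes (black circles) and 9 tested adult beta globin probes (grey squares; probes numbered within a gene); the dashed line is the median of all measured genes, 0.03. Every member interval lies to the right of 0, and 8 of the 9 adult beta globin intervals include it.

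The differences were also set against each other, since globins of the same cells could move together or apart. Across the 4 globins the order of the differences was Hba-x, Hba-a1, Hbb-bh1 and Hbb-y. Hba-x exceeded Hbb-y by 1.06 and Hbb-bh1 by 0.61 on the log2 scale, and Hba-a1 exceeded Hbb-y by 0.68. For each of these pairs all 3 KO arrays had the larger within-array difference, and the exact permutation test over arrays gave its smallest possible p, 0.1 (two-sided, adjusted p = 0.2 over 10 pairs). For neighbours in the order the within-array differences overlapped between the groups: Hba-a1 minus Hba-x was -0.38 (exact p = 0.3), Hba-a1 minus Hbb-bh1 0.23 (exact p = 0.7) and Hbb-bh1 minus Hbb-y 0.46 (exact p = 0.2). Slc4a1 exceeded Hbb-bh1 by 0.98 and Hbb-y by 1.44, each with an exact p of 0.1, while Hba-a1 minus Slc4a1 was -0.76 (exact p = 0.7) and Hba-x minus Slc4a1 -0.38 (exact p = 1). With no background correction Hbb-bh1 minus Slc4a1 was -0.32 (exact p = 1) and Hbb-y minus Slc4a1 -0.76 (exact p = 0.2), and in the deposited processed table they were -1.06 (exact p = 0.8) and -1.50 (exact p = 0.2). With 3 arrays against 3 no pair could reach an exact p below 0.1, so the test cannot show whether any of the 10 pairs differ, and the values are a description.

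The WT array that read lowest was not the same for each gene. It was WT replicate 2 for Hba-x and Hba-a1, WT replicate 3 for Hbb-bh1 and Hbb-y, and WT replicate 1 for Slc4a1. On the KO arrays the raw readings of any of the 6 tested probes stayed within 1.12-fold of each other, whereas on the WT arrays the range was 1.24-fold to 2.06-fold. For comparison, all tested probes together correlated at 0.846 to 0.856 between KO arrays and at 0.772 to 0.790 between WT arrays (Pearson, across probes, which are not independent replicates).

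**Figure D3:**
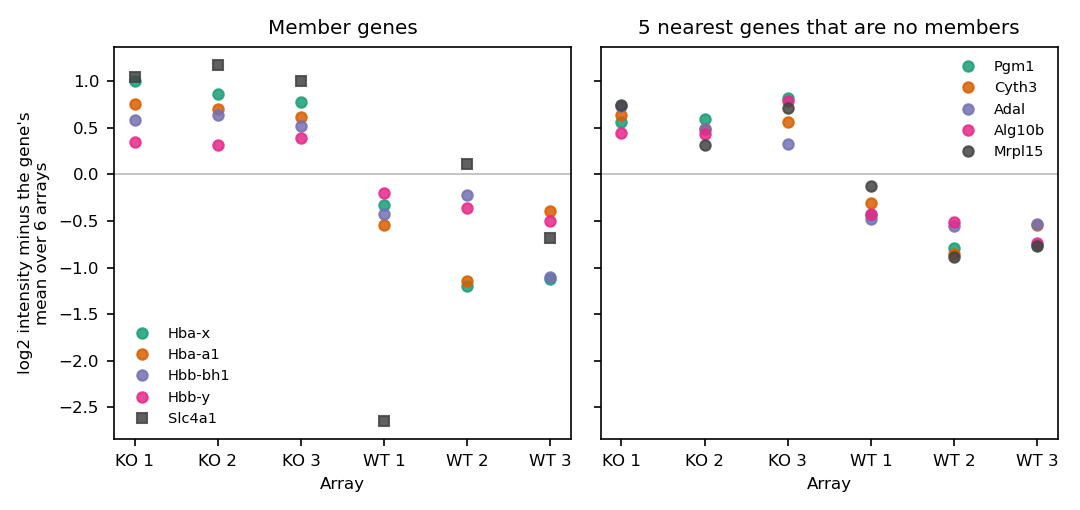
Log2 intensity on each array minus the gene's own mean over the 6 arrays, KO arrays left and WT arrays right, for the 5 measured member genes (left panel; Slc4a1 as squares) and for the 5 non-member genes closest to the mean profile of the 4 globins (right panel). The globins sit above their mean on all KO arrays and below it on all WT arrays. Slc4a1 departs from them most on WT replicate 1, and on WT replicate 2 it lies above its own mean.

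The mean centred profile of the 4 globins was 0.68, 0.63 and 0.58 on KO replicates 1 to 3 and -0.37, -0.73 and -0.78 on WT replicates 1 to 3. Every gene measured was ranked by its root mean square (RMS) distance from this profile over the 6 arrays. The globins, which form the profile, lay 0.25 (Hba-a1), 0.25 (Hbb-bh1), 0.28 (Hbb-y) and 0.30 (Hba-x) from it, at ranks 25, 26, 43 and 65 of 7141. Slc4a1 lay at 1.04, rank 4835, beyond the median distance of all genes, 0.86. That distance rests largely on WT replicate 1, where Slc4a1 was not above background. The closest genes outside the set were Pgm1, a phosphoglucomutase (0.12), Cyth3, an exchange factor for ARF GTPases (0.13), Adal, an adenosine deaminase-like protein (0.18), Alg10b, a glucosyltransferase of N-glycan assembly (0.18), and Mrpl15, a protein of the mitochondrial ribosome (0.19). Their log2 differences ran between 1.04 (Adal) and 1.32 (Pgm1), and none was called.

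Adult beta globin, the chain that replaces the embryonic ones, was read by probes annotated to Hbb-bs and Hbb-bt, the adult beta genes of the reference strain. These genes are nearly identical and their probes cannot be assigned to 1 of them with certainty. Of 10 such probes 9 were tested, and 9 of these read higher in KO, by 0.03 to 1.31 on the log2 scale. The probes read nearly identical transcripts and are not independent. All tested Hbb-bt probes and some Hbb-bs probes passed the filter only through KO, with 2 WT arrays above background. Only 1 had an unadjusted p under 0.05 (8.58% of all tested probes did, higher in KO), and 0 were called. In 2 every KO array was above every WT array (11.3% of tested probes), and 1 of these passed only through KO. The Hbb-bs probe with the largest difference read 390.5, 403 and 361 on the KO arrays, against 238, 115 and 265 on the WT arrays, without overlap (1.31 ± 0.48, SE, limma adjusted p = 0.278). The brightest Hbb-bs probe read 447, 326 and 352 on the KO arrays, against 233, 396 and 129 on the WT arrays, so that WT replicate 2 lay within the KO range and the difference was 0.90 ± 0.57 (adjusted p = 0.534). For Hbb-bt the brightest probe read 328, 258 and 350.4 in KO, against 153, 243 and 168 in WT, with 1.17 ± 0.66 (adjusted p = 0.481). Probes of Hbb-b2 and of the theta globins Hbq1a and Hbq1b were not above background on any array.

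Heme, the group that globin chains bind, is made by enzymes that all cells use, together with Alas2. Of 12 heme synthesis genes 11 were on the array and 7 were measured, and 0 were called in either direction. The median log2 difference was 0.74, beside 0.03 over all genes. Cpox and Tmem14c were chosen after their values were seen, as the pair with an unadjusted limma p under 0.05. Of all tested probes, 8.58% were higher in KO at that p. In both genes every KO array was above every WT array, as in 11.3% of tested probes. Cpox, the coproporphyrinogen oxidase, had 0.74 ± 0.25 (SE, limma adjusted p = 0.246), and Tmem14c, which carries a porphyrin precursor in mitochondria, 0.89 ± 0.32 (adjusted p = 0.262). Alas1, the housekeeping first enzyme, read 781, 1268 and 917 in KO, against 290.2, 411 and 895 in WT, where WT replicate 3 lay among the KO arrays (1.30 ± 0.59, adjusted p = 0.378). Ppox, the protoporphyrinogen oxidase, was above background on 1 of 3 WT arrays, and its fitted difference was 1.15 (adjusted p = 0.344). Alad (-0.41), Slc25a38 (-0.19) and Urod (-0.08) read lower in KO, with overlap between the groups.

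The membrane skeleton genes of red cells were mostly at background. Of 17 listed, 14 were on the array, 9 of these were above background on no array, and only Slc2a1, the glucose transporter that many cell types use, was measured (-0.09, limma adjusted p = 0.910). Of 14 erythroid transcription factors 2 were measured and 0 called. Myb, which acts in blood progenitors, had 319, 175 and 113 in KO, against 487, 449 and 219.7 in WT. KO replicate 1 overlapped WT replicate 3, KO replicate 3 was not above background, and the difference was -1.64 ± 0.68 (SE, limma adjusted p = 0.335). Ldb1, a bridging partner of GATA1 used in many tissues, read -0.13 (adjusted p = 0.907).

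Of 11 iron and receptor genes 6 were measured and 0 called, with a median of 0.21. Blvrb, a biliverdin reductase abundant in red cells, read 230.1, 151 and 245 in KO, against 106, 94.9 and 157 in WT, with 1 WT array above background and a difference of 1.21 ± 0.63 (SE, limma adjusted p = 0.440). Tfrc, the transferrin receptor through which erythroid cells take up iron, read 0.33 (adjusted p = 0.772), and the erythropoietin receptor gene Epor was not measured. Of 11 red cell enzymes and maturation genes 5 were measured and 0 called, with a median of 0.08 and a range of -0.29 to 0.35. Many of the genes in these lists are also expressed in cells other than red cells.

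**Figure D4:**
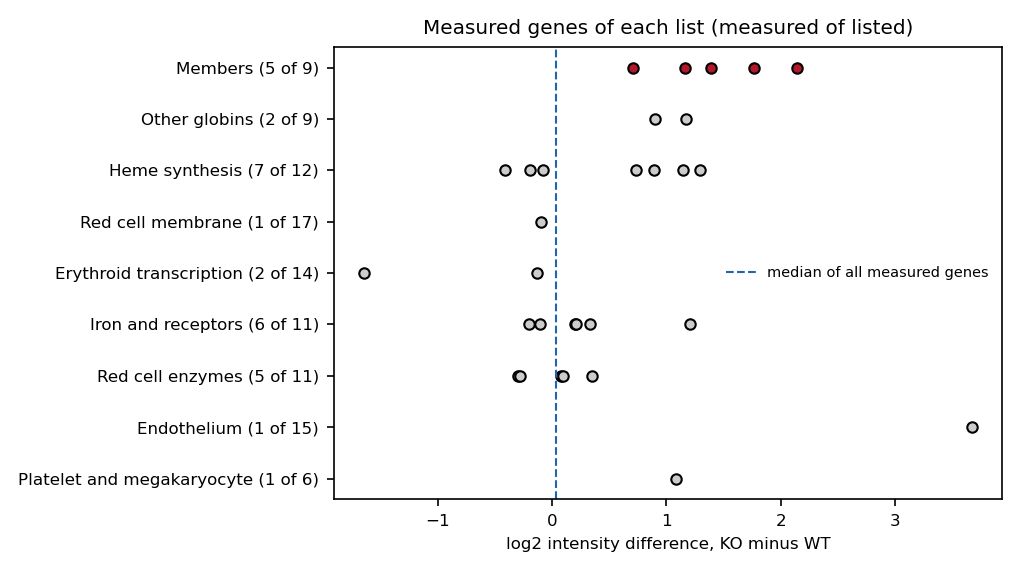
Difference in log2 intensity, KO minus WT, of each measured gene (1 point a gene) in the member set, in 6 lists of red cell biology and in 2 lists of other vascular and blood cells, with the number measured of the number listed; the dashed line is the median of all measured genes, 0.03. The 5 member genes lie between 0.71 and 2.15. Heme synthesis genes (4 of 7 above 0, median 0.74), iron genes (4 of 6) and red cell enzymes (3 of 5) lie on both sides of the line. The 2 measured transcription factors lie below it.

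Markers of other cells near the placode were read beside the globins. The summed intensity of the member genes, on the normalized linear scale, was 13738 to 14425 in KO and 5769 to 7516 in WT. That of 15 endothelial markers was 1107 to 1551 in KO and 494.5 to 732 in WT, although 8 of the 15, Pecam1, Cdh5 and Kdr among them, were above background on no array. Each sum takes in every list gene with a probe, readings at background included. The endothelial sum therefore does not show a rise of the list as a whole, and the macrophage sum below likewise holds background readings. Cldn5, a claudin of endothelial tight junctions, was the single marker of that list measured. It read 842, 569 and 334.5 in KO, against 203, 67.9 and 70.2 in WT, where it was above background on 0 of 3 arrays, and its KO mean was at least 6.43-fold above the WT bound (adjusted p = 0.0711 by limma, not called). Of 6 platelet and megakaryocyte markers 1 was measured, Gp9, with a mean log2 intensity of 10.61 ± 0.16 in KO and 9.53 ± 0.48 in WT (SD, n = 3 each), a difference of 1.09 ± 0.33 (SE, adjusted p = 0.209). Of 11 macrophage markers 0 were measured, and their sum was 285 to 457 in KO and 295 to 954 in WT. The 954 came with Aif1, at a deposited 823 on WT replicate 1, the only array where it was above background. Periocular mesenchyme markers differed in both directions. Of 10 listed 8 were measured, with a median of 1.66 and a summed intensity of 2508 to 3093 in KO and 2504 to 4155 in WT. Alx4, Col1a1, Col3a1, Lum and Prrx1 passed the filter only through KO, and Snai2 only through WT. Passing in this way favours the direction these genes read, so the median is partly set by the filter. Alx4, a homeobox factor of that mesenchyme, was above background on 0 of 3 WT arrays and at least 10.7-fold above the WT bound (limma adjusted p = 0.0489), a call lost without any 1 array. Col1a1 read 2.996 and Col3a1 2.35 higher in KO on the log2 scale, each above background on 1 of 3 WT arrays, and Lum, on 0 of 3, was at least 2.70-fold above the WT bound (adjusted p = 0.0898). In these every KO array was above every WT array, as in 11.3% of all tested probes. Pdgfra read -2.21 and Snai2 -2.86, with every KO array below every WT array, as in 10.2% of tested probes. Col1a1, Col3a1, Lum, Pdgfra and Snai2 were not called. Of 6 optic vesicle markers 3 were measured and 0 called, with a median of 0.51 and a sum of 1413 to 2162 in KO and 823 to 4731 in WT. The 4731 came with Mitf, at a deposited 4457.5 on WT replicate 2, against 744 and 647 on WT replicates 1 and 3. Otx2, another of these markers, was above background on 0 of 3 WT arrays and at least 2.03-fold above the WT bound (limma adjusted p = 0.173). Aif1 and these mesenchyme and optic vesicle genes were named after their values were seen. The part of all these cells in the globin differences was not tested.

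Read by their brightest probes, the 5 genes kept their direction under every setting tried. The dimmer Hbb-bh1 probe, above background on no array, read -0.23 with no filter. Without 1 array at a time the difference was 1.59 to 2.04 for Hba-x, 1.15 to 1.52 for Hba-a1, 0.90 to 1.35 for Hbb-bh1, 0.63 to 0.79 for Hbb-y and 1.36 to 2.71 for Slc4a1. In each case the lowest and highest values came from leaving out a WT array. The limma adjusted p of Hba-x, the smallest of the 5 as reported though not in every setting, was 0.075 to 0.209 over these and the other settings. In any of these settings 0 member probes were called.

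**Figure D5:**
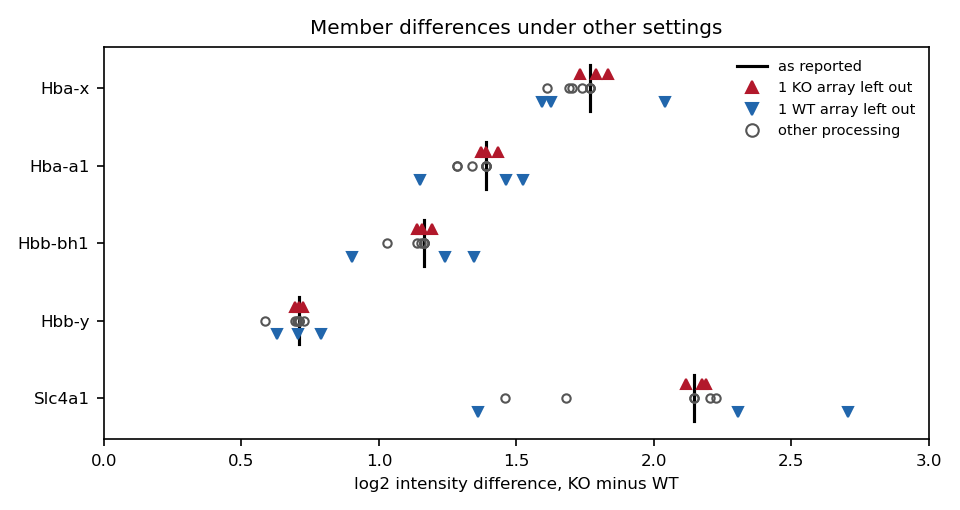
Difference in log2 intensity, KO minus WT, of the 5 measured member genes as reported (black bar), with 1 KO array left out (upward triangles), with 1 WT array left out (downward triangles) and under other processing (open circles), each gene read by its brightest probe. All points lie above 0, and for Slc4a1 the difference was 1.36 without WT replicate 1 and 2.71 without WT replicate 2.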

How the data were processed

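Total RNA of laser-microdissected tissue was amplified as cDNA (NuGEN WT-Ovation Pico), biotin labelled and hybridised to Illumina MouseWG-6 v2 arrays. The authors deposited, per probe and array, a linear bead intensity that was not normalized between arrays, a detection p-value against negative control beads, a bead standard error on the same signal scale and a bead count. The authors' deposited processed table (GenomeStudio, cubic spline per their methods, no version given) held linear intensity with a median of 15.9 to 16.0 per array and 27.2% to 27.3% of values below 0. It served as an alternative after values below 0 were set to 0 and all values were shifted by 16.

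Intensities were background corrected by normexp (offset 16, parameters inferred from the detection p-values), put on the log2 scale and quantile normalized. A probe was kept if its detection p-value stayed under 0.01 across the 3 arrays of KO or of WT (12697 of 45281). A mean per genotype was fitted in R 4.3.3 with limma 3.58.1 (lmFit and eBayes; degrees of freedom were 4 residual and 2.15 prior). Benjamini-Hochberg adjustment covered all kept probes. A call needed an adjusted p under 0.05 and an absolute log2 difference of at least 1. Differences are KO minus WT. Only the limma fit and the call rule were tested on simulated data, with the same spread for all probes and both genotypes. Background correction, normalization, filter and probe choice were not simulated. GenomeStudio's own test was not run. A gene was read by its brightest kept probe. Where a probe was above background on no array of a genotype, a fold is given as "at least", against that genotype's dimmest above-background signal or the probe itself, whichever was brighter. The number of arrays limits the precision.

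The members and lists were chosen with earlier results of these data known. Named were the 9 members, the called and at most 6 further measured list genes of largest difference, the 5 genes nearest the globin profile and Cldn5; Cpox, Tmem14c, Gp9 and other list and marker genes given by value were added afterwards. Symbols came from the platform annotation (34885 probes with 1 symbol, 18 with several, 10378 with none; 34807 matched a current table by Entrez identifier, with none changed). Alternatives covered background, scaling, filters, probes, the replicate block and leaving out each array.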

Additional observations from a re-analysis of the deposited data

How the results depend on the processing

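Read by its brightest probe, each of the 5 measured genes stayed higher in KO and uncalled under the 13 settings tried (12 for Slc4a1, which the stricter filter removes). Other settings moved the count over all probes, against which the members are read. It was 107 as reported (54 lower, 53 higher), 36 with no background correction (17 and 19), 53 with an offset of 50 (26 and 27), 66 with no filter (36 and 30) and 2 for probes above background on all 6 arrays (2 and 0; 580 lower and 543 higher at an unadjusted p under 0.05). Median scaling gave 92, of which 68.5% were higher, against 49.5% as reported. The processed table gave 133, with 54 lower and 79 higher. Leaving out 1 array gave 0 to 0 calls in limma, with 675 to 1222 probes lower and 1033 to 1188 higher at an unadjusted p under 0.05. The replicate numbers did not pair the samples (correlations of same-numbered deviations of -0.01, 0.00 and -0.03), and a replicate block gave 0 calls over all probes (772 lower and 1042 higher at an unadjusted p under 0.05) and adjusted p-values of 0.209 to 0.391 for the 5 genes. The median over member genes was 0.94 for all with a probe and no filter. Values that changed sign were the dimmer Hbb-bh1 probe with no filter (-0.23), Hba-x minus Slc4a1 with no background correction (0.16) and, with no filter, the list medians of other globins (-0.16), red cell membrane (0.12) and red cell enzymes (-0.11). That of erythroid transcription moved to -0.09. The list changes come with more, dimmer genes; the cause of the others was not tested. Depth of signal limits Alas2, Gata1, Klf1 and the WT readings of Slc4a1, and 1 RNA pool a genotype limits every comparison.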

Other observations

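In the deposited processed table the member probes kept the percentile of the raw readings on every array (largest shift 0). There Hba-x read 1610, 1469 and 1370 on the KO arrays and 627, 350.1 and 367 on the WT arrays. Slc4a1 read 347, 378 and 336 in KO and 2.24, 191 and 114 in WT, so that WT replicate 1 stood near 0. Alas2 read 70.2, 57.6 and 22.2 in KO and -1.88, -2.07 and 58.6 in WT, with WT replicate 3 above KO replicate 3. Both Gata1 probes had values below 0 on WT replicate 1.

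In the red cell lists, Klf3 and Gypc were untested genes above background on some KO array whose normalized KO readings all lay above the WT ones. The deposited intensity of Klf3, a KLF-family factor that binds CACCC elements, was 125, 583 and 513 in KO, where KO replicates 2 and 3 were above background, and 114, 74.7 and 98.0 in WT, where none was. That of Gypc, glycophorin C of the red cell membrane, was 157, 123 and 115 in KO, with KO replicate 1 above background, and 117, 91.0 and 77.8 in WT, so that before normalization KO replicate 3 lay below WT replicate 1. Both were singled out after their values were seen.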
